A study of Mus musculus with 2 samples.

Results

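Collagens are the triple-helical proteins that form most of the extracellular matrix, and their genes were described here in single cells of the whole mouse uterus on gestational day 4. The members were all gene symbols made of Col, a number, the letter a and a further number, which gave 44 of the 31053 genes listed in both matrices. By structure, 11 encode fibrillar chains, 6 encode type IV chains of basement membranes, 9 encode fibril-associated collagens with interrupted triple helices (FACIT), and 18 encode other types. One droplet library came from uterus labelled Mettl14 f/f and the other from uterus labelled Mettl14 d/d, with 1 library per genotype and no separate animals or replicates named. Mettl14 encodes a core subunit of the enzyme that writes N6-methyladenosine into RNA. The labels name neither the Cre driver nor the deleted exons, nor the strain, the animals' age or how many animals were pooled. Tissue had been dissociated with collagenase, dispase and DNase, so the measured cells are those that this digestion released.

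The matrices held 55080123 UMIs (unique molecular identifiers, 1 per captured RNA molecule) over 8164 f/f barcodes and 44745031 UMIs over 6661 d/d barcodes. After filtering, 7095 f/f cells with a median of 6085 UMIs and 5977 d/d cells with a median of 5217 UMIs were kept, and 8 kept barcodes occurred in both libraries. Cells were clustered without the 10 collagens that were among the variable genes, and clusters were named from marker genes, so the cell class names are rebuilt and not the submitters' own. Levels are UMIs summed over the cells of a class, per 1000000 UMIs of that class (CPM). Intervals are exact at 95% and cover counting error only. With 1 library per genotype no test across animals was possible, and differences between genotype, animal, dissection and library cannot be told apart. A collagen was counted as higher or lower in d/d at a 1.5-fold difference in CPM provided that the library with more of it held 50 UMIs or more. Mettl14 itself stood at 14.5 CPM in f/f stroma against 2.46 CPM in d/d stroma, and at 18.7 and 18.3 CPM in blood endothelium. Without the deleted exons being named, a count of 3′ tags does not tell which part of the transcript was missing.

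Fibrillar collagens such as types I, III and V assemble into the cable-like fibrils of connective tissue, whereas type IV chains form the sheet-like network under epithelia and around vessels and muscle fibres. FACIT collagens bind to the surface of fibrils, type VI forms beaded filaments close to cells, type VII forms anchoring fibrils, and types XV and XVIII, the multiplexins, lie at the border between basement membranes and the fibrils beyond them. In the uterus around implantation the stroma turns into decidua, a change that is known to involve remodelling of its fibrillar matrix and new basement-membrane-like material around its cells.

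Collagen genes are spread over the mouse genome, but the type IV genes lie in head-to-head pairs that share a promoter region. In the GRCm38 annotation Col4a1 and Col4a2 start on opposite strands of chromosome 8, and their first exons overlap by 22 bases. The overlapping stretch is printed because the pair is followed below in stroma, pericytes, blood endothelium and smooth muscle. It runs from the RefSeq start of Col4a2 to that of Col4a1 at chr8:11312805-11312826 of GRCm38.p6 and is written on the forward strand.
Col4a1 and Col4a2: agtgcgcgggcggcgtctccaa
Col4a4 and Col4a3 on chromosome 1 face away from each other across 71 bases, and Col4a6 and Col4a5 on the X chromosome across 1308 bases. The 150 bases before the start sites of Col3a1, a fibrillar chain, and of Col15a1, a multiplexin, are shown because the stromal levels of these genes differed between the libraries in opposite directions. They are taken from RefSeq promoters of GRCm38.p6, at chr1:45311388-45311537 and chr4:47207862-47208011, both on the forward strand and 5′ to 3′, with capitals for a TATAAA match.
Col3a1: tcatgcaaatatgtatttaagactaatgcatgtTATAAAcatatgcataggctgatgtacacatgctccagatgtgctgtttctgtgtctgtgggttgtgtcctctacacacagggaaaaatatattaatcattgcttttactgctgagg
Col15a1: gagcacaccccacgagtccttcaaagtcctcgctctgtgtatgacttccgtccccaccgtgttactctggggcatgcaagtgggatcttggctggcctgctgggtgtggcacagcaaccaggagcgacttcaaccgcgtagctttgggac
The CCAAT motif, the GGGCGG motif and the TATAAA motif, none of which is part of another, were searched on both strands. The Col3a1 window held TATAAA once, 117 bases before the start, and the Col15a1 window held no match of these motifs. Among 32851 RefSeq windows of this length, CCAAT occurred in 24.5%, GGGCGG in 28.6% and TATAAA in 7.57%. Of the 38 windows of the 35 collagens with an entry, 8 held CCAAT, 19 held GGGCGG and 4 held TATAAA. A match is a description of letters and not evidence of a binding site.

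Most collagen RNA came from the stroma. Stromal cells contributed 85.5% of the f/f collagen UMIs and 73.5% of those in d/d, while they held 69.5% and 32.3% of all UMIs. The class named pericytes, after the contractile cells that wrap small vessels, came next with 6.25% and 14.3%. It was followed in f/f by blood endothelium and in d/d by smooth muscle. The pericyte class took in cluster 7, which had the smooth muscle marker Myh11 among its leading genes. Cluster 7 made up 18.3% of the f/f and 48.4% of the d/d cells of that class, so its class values mix cells in different proportions. Blood endothelium gave 3.19% and 3.07% and smooth muscle 1.74% and 7.71%. Summed over all 44 genes, collagens made up 1.45% of the f/f stromal UMIs and 2.34% of those in d/d. In the other collagen-rich classes the order was the opposite, with 1.71% and 1.14% in pericytes, 0.511% and 0.365% in smooth muscle, and 0.398% and 0.267% in blood endothelium. The cells compared numbered 4710 f/f and 1704 d/d in stroma, 378 and 1194 in pericytes, 446 and 1480 in smooth muscle, and 489 and 603 in blood endothelium. Of the 44 collagens, 33 reached 50 UMIs in at least 1 compared class and library.

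**Figure D1:**
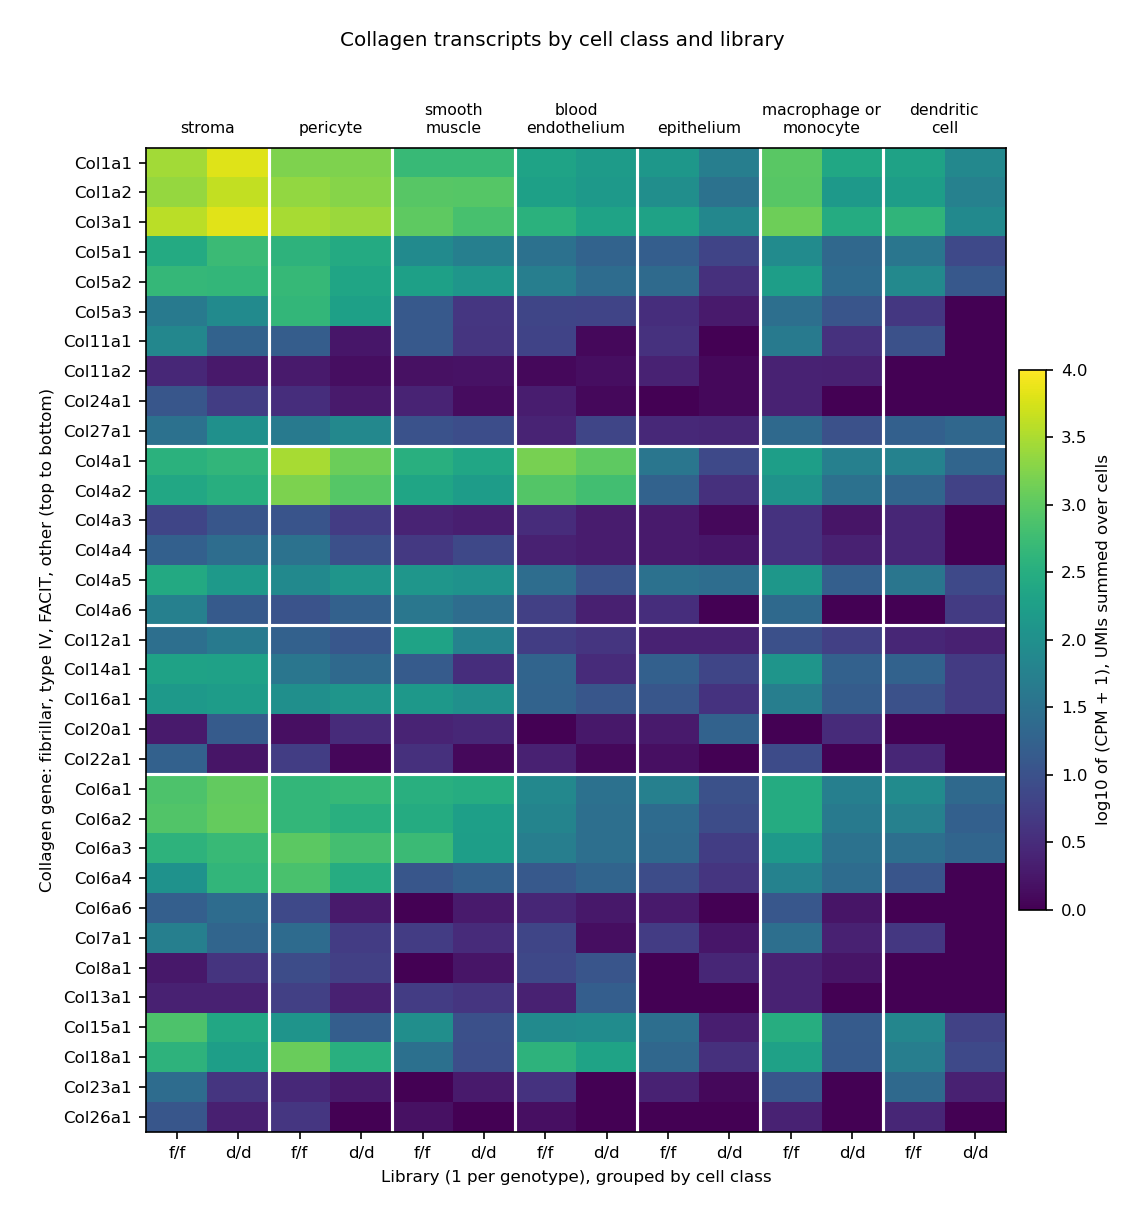
Levels of the 33 collagens with at least 50 UMIs in a compared class, as log10 of CPM plus 1 (color), with 1 column per library within each of 7 cell classes and rows grouped as fibrillar, type IV, FACIT and other. Col1a1, Col1a2 and Col3a1 are brightest in stroma, Col4a1 and Col4a2 in pericytes and blood endothelium, and the 14 collagens judged in macrophages are darker in d/d.

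In stroma the 3 most abundant collagens were all higher in d/d. Col3a1, the homotrimeric fibrillar chain of soft tissues, stood at 3863 CPM in f/f against 6558 CPM in d/d, a log2 difference of 0.76 (0.75 to 0.78). Col1a1, the major chain of type I collagen, stood at 2770 and 6277 CPM (log2 1.18, 1.17 to 1.19), and its partner chain Col1a2 at 2335 and 4353 CPM (log2 0.90, 0.88 to 0.91). The 2 chains of type I did not differ by the same factor, so that the ratio of Col1a1 to Col1a2 UMIs was 1.19 (1.18 to 1.20) in f/f stroma and 1.44 (1.43 to 1.46) in d/d stroma. A total of 31 collagens could be judged in stroma, of which 12 were higher and 11 lower in d/d. The UMI minimum applied only to the library with more of the gene, so a gene could enter through a single library. Over all kept cells Col22a1 had 588 f/f and 13 d/d UMIs, and Col20a1 had 44 and 285. Stroma held 33815863 f/f and 12998950 d/d UMIs, so the minimum was not equally strict for both. Among all genes judged in stroma, 14% were higher and 20.6% lower, against 38.7% and 35.5% of the collagens. Given this entry rule, the shares cannot tell whether collagens differed more often than other genes. The median log2 difference was 0.34 over the 31 collagens and -0.13 over all genes with at least 100 UMIs.

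The minor fibrillar chains, which are built into type I and type III fibrils, went in both directions in stroma. Col5a1, a chain of the type V collagen that nucleates fibrils, stood at 281 and 533 CPM (log2 0.92, 0.88 to 0.97), whereas Col5a2 stood at 466 and 448 CPM (log2 -0.06, -0.10 to -0.01). The ratio of Col5a2 to Col5a1 UMIs was therefore 1.65 in f/f and 0.84 in d/d. Col5a3 stood at 43.4 and 80.2 CPM, and Col27a1, a fibrillar chain best known from cartilage, at 30.4 and 101 CPM (log2 1.73, 1.61 to 1.85). Col11a1, which like type V starts fibrils, was lower in d/d, at 69.2 against 17.2 CPM (log2 -2.01, -2.22 to -1.81). Col24a1 and Col11a2 were also lower, but with 10.9 and 4.38 CPM and with 1.83 and 0.85 CPM they lay under 20 CPM, where RNA released from other cells can weigh. Stroma nevertheless held 367 of the 388 Col24a1 UMIs of the f/f library. Of the 10 fibrillar members judged, 6 were higher, 3 lower and 1 neither, against the same 14% and 20.6% of all genes.

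The stroma of the libraries hardly overlapped by cluster, so each of these values sets cells of largely different clusters side by side. Clusters 0, 1 and 2, led by genes such as Hsd11b2, Angptl7, Fst and Maob, held 3999 f/f and 31 d/d cells. Cluster 4, led by Mmp2, Mfap4 and A2m, held 9 f/f and 1103 d/d cells, and cluster 12, led by cell cycle genes, held 368 and 48. Only cluster 5, led by Lum, C3, Clec3b and Inmt, had at least 100 cells of each library, with 334 f/f and 522 d/d cells. Col7a1 and Col15a1 were among the 10 leading genes of cluster 0, Col15a1 of cluster 2, Col1a1 of cluster 4 and Col14a1 of cluster 5. These leading genes describe the clusters and are no test.

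Of all clusters, cluster 5 held the highest Col1a1, Col1a2 and Col3a1 levels in both libraries, and there the difference pointed the other way. Col1a1 stood at 16484 CPM in f/f against 10105 CPM in d/d (log2 -0.71, -0.73 to -0.68), Col1a2 at 14150 and 8725 CPM (log2 -0.70, -0.73 to -0.67), and Col3a1 at 17808 and 10364 CPM (log2 -0.78, -0.81 to -0.76). Summed over all members, collagens took 6.57% of UMIs of the f/f cells of cluster 5 and 3.94% of those of its d/d cells. In the remaining stroma they took 1.21% and 2.01%. Within cluster 5, 23 collagens could be judged, with 0 higher and 14 lower in d/d, against 13.8% of all genes higher and 13.3% lower there. The median log2 difference of these 23 was -0.70, and that of all genes was -0.08. Lowering the minimum to 20 UMIs gave 2 collagens that were higher. With a single library per genotype there was no replicated test behind this count of 0, and the ratio of Col1a1 to Col1a2 was 1.16 in both libraries of this cluster.

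Outside cluster 5, 12 of 31 collagens were higher and 12 lower in d/d, against 12.6% and 23.2% of all genes. Set side by side over the 23 collagens judged in both parts, 6 were higher outside cluster 5 and lower inside it. These were Col1a1, Col1a2, Col3a1, Col5a1, Col5a3 and the FACIT chain Col12a1. A further 5 were lower in both parts, namely Col11a1, Col4a5, Col7a1, Col15a1 and Col18a1. Higher outside with no 1.5-fold difference inside were Col27a1, Col4a4, Col6a4 and Col6a6, and none was higher in both. The comparison outside cluster 5 sets mainly cluster 4 of d/d against clusters 0, 1 and 2 of f/f. In cycling stroma, where cells of both libraries clustered together in smaller number, Col1a1 stood at 2032 and 4072 CPM, Col3a1 at 2996 and 4683 CPM, and Col15a1 at 559 and 191 CPM. There 4 of 23 collagens were higher and 9 lower, against 6.32% and 33.4% of all genes.

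**Figure D2:**
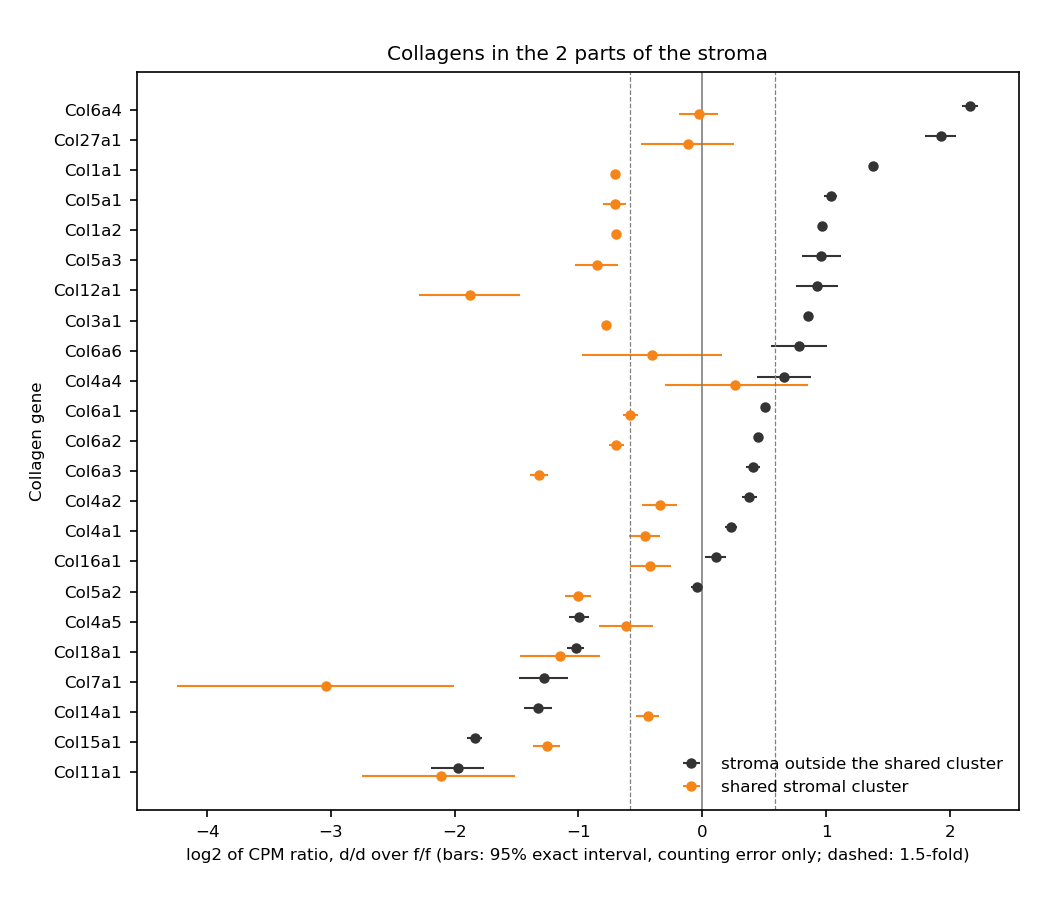
Log2 of the CPM ratio, d/d over f/f, for the 23 collagens judged in both parts of the stroma, in cluster 5 (orange) and in the remaining stroma (black), with 95% exact intervals for counting error and dashed lines at 1.5-fold. Col1a1 lies at 1.38 outside and -0.71 inside, whereas Col15a1 lies at -1.84 and -1.26 and Col18a1 at -1.02 and -1.15.

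Multiplexins were lower in d/d in each part of the stroma examined. Col15a1, which binds basement membranes to neighbouring fibrils, stood at 753 CPM in f/f stroma against 253 CPM in d/d stroma (log2 -1.57, -1.63 to -1.52). In cluster 5 it stood at 1176 and 493 CPM (log2 -1.26, -1.37 to -1.15). Among the f/f clusters it was nearly even, with 731, 748 and 800 CPM in clusters 0, 1 and 2, and in the d/d cluster 4 it was at 206 CPM. Col18a1, whose C-terminal fragment is endostatin, stood at 387 and 174 CPM in all stroma (log2 -1.16, -1.22 to -1.09) and at 134 and 60.3 CPM in cluster 5 (log2 -1.15, -1.48 to -0.82). Its level among the f/f clusters varied more, from 285 CPM in cluster 1 to 558 CPM in cluster 0. RefSeq lists 2 start sites for Col18a1, which 3′ tags cannot tell apart.

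Type VI collagen, a heterotrimer of the Col6a1 and Col6a2 chains with one of several further chains, differed by chain. Col6a1 and Col6a2 stood at 756 and 815 CPM in f/f stroma and at 1107 and 1137 CPM in d/d (log2 0.55 and 0.48), under the 1.5-fold limit. The further chains diverged: Col6a3 stood at 383 and 486 CPM (log2 0.34, 0.30 to 0.39) and Col6a4 at 110 and 427 CPM (log2 1.95, 1.89 to 2.01). In cluster 5 Col6a3 was lower in d/d, at 2902 against 1163 CPM (log2 -1.32, -1.39 to -1.25), while Col6a4 stood at 379 and 371 CPM (log2 -0.03, -0.19 to 0.13). Col6a4 thus lay near 100 CPM in f/f clusters 0, 1 and 2, with 102, 93.5 and 106 CPM, and at 446 CPM in d/d cluster 4. Its 2 libraries did not differ beyond counting error in cluster 5. Col6a6, another of these chains, was higher in d/d stroma at 15.0 and 24.5 CPM.

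Type VII, the anchoring fibril collagen, stood at 52.9 CPM in f/f stroma against 19.2 CPM in d/d (log2 -1.47, -1.66 to -1.27). It was highest in f/f cluster 0, at 112 CPM, against 12.6 CPM in cluster 1. In cluster 5, 52 f/f and 9 d/d UMIs gave a log2 difference of -3.04 (-4.25 to -2.01). The transmembrane collagen Col23a1 stood at 24.8 and 3.15 CPM in stroma (log2 -2.97, -3.46 to -2.52). Col22a1, a FACIT chain known from tissue junctions, had 556 f/f and 9 d/d UMIs in stroma, and Col26a1 had 368 and 16. Both lay under 20 CPM even in f/f, at 16.4 and 10.9 CPM, but stroma was their highest class there.

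**Figure D3:**
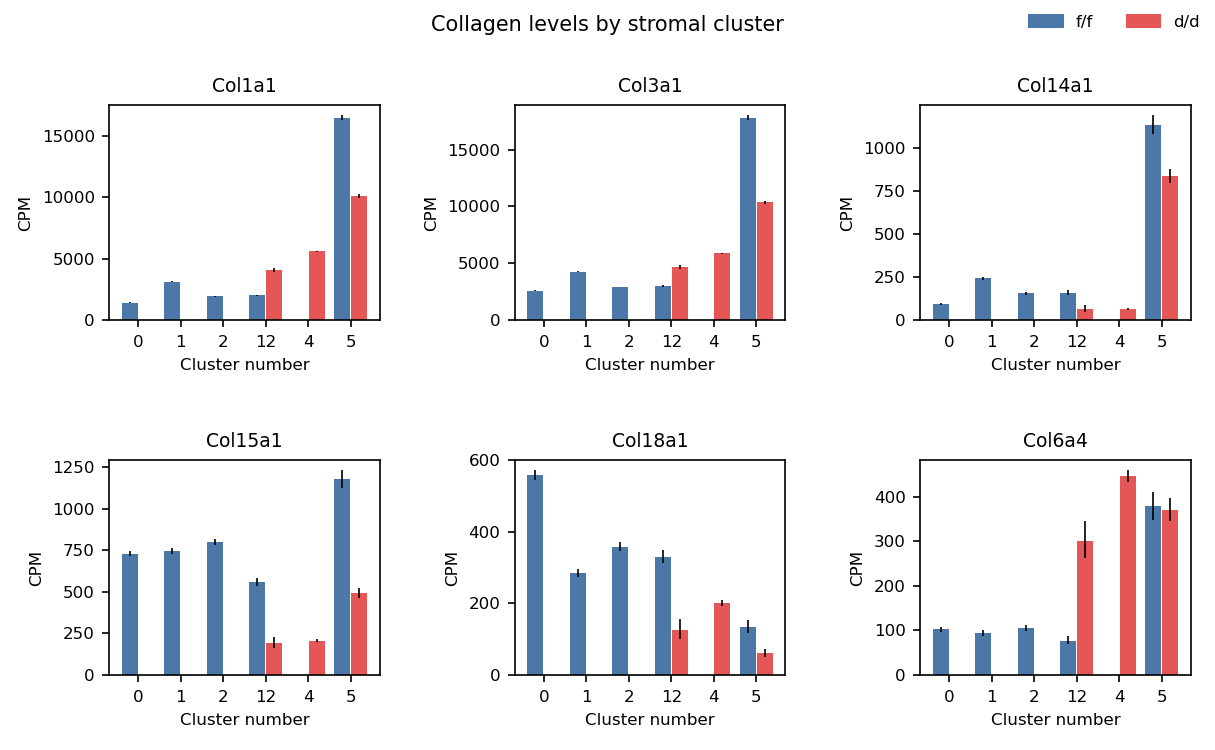
CPM of 6 collagens in stromal clusters 0, 1 and 2 (mostly f/f), 12 (cycling), 4 (mostly d/d) and 5 (both), with bars for each library that had at least 30 cells in the cluster and lines for the 95% exact Poisson interval. Col1a1, Col3a1 and Col14a1 peak in cluster 5, Col15a1 and Col18a1 are lower in every d/d bar than in the f/f bar of the same cluster, and Col6a4 is level in cluster 5.

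FACIT members also differed by cluster. Col14a1, which decorates type I fibrils, was a marker of cluster 5, with 1133 CPM in f/f against 834 CPM in d/d, and reached only 63.4 CPM in d/d cells outside it against 159 CPM in f/f. Over all stroma these values averaged to 203 and 192 CPM, which is not a 1.5-fold difference. Col16a1 stood at 138 and 162 CPM and Col12a1, found in tissues under tension, at 27.6 and 42.2 CPM (log2 0.61, 0.46 to 0.77). In cluster 5 Col12a1 was lower in d/d, at 120 against 32.7 CPM (log2 -1.88, -2.29 to -1.47). Col20a1 had 33 UMIs in f/f stroma and 168 in d/d stroma (0.98 and 12.9 CPM), and 2 and 71 UMIs in epithelium (0.92 and 17.0 CPM). These levels lie under 20 CPM, where free RNA can weigh, but epithelium was the highest class for Col20a1 in d/d.

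The type IV chains of the ubiquitous network, Col4a1 and Col4a2, differed little in stroma. Col4a1 stood at 363 and 423 CPM (log2 0.22, 0.18 to 0.27) and Col4a2 at 251 and 325 CPM (log2 0.37, 0.32 to 0.42). The pair on the X chromosome did differ, with Col4a5 at 269 and 139 CPM (log2 -0.95, -1.03 to -0.88) and Col4a6 at 54.9 and 12.8 CPM (log2 -2.10, -2.34 to -1.87). Although they lie head to head, the ratio of Col4a5 to Col4a6 UMIs was 4.90 (4.66 to 5.15) in f/f stroma and 10.9 (9.27 to 12.8) in d/d stroma. Col4a4 stood at 15.7 and 25.5 CPM, and Col4a3, with 5.77 and 10.6 CPM, lay under 20 CPM. Of the 6 type IV members judged in stroma 2 were higher, 2 lower and 2 neither, against 14% of all genes higher and 20.6% lower.

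Pericytes held the highest Col4a1 and Col4a2 levels of any compared class in the f/f library. Col4a1 stood at 2993 CPM in f/f against 1274 CPM in d/d (log2 -1.23, -1.28 to -1.18), and Col4a2 at 1649 and 892 CPM (log2 -0.89, -0.95 to -0.82). Pericyte Col18a1 stood at 1231 and 331 CPM (log2 -1.89, -1.98 to -1.80), Col6a4 at 721 and 303 CPM (log2 -1.25, -1.35 to -1.15) and Col5a3 at 436 and 187 CPM (log2 -1.22, -1.36 to -1.09). In all, 3 of 21 collagens were higher and 11 lower in d/d pericytes, against 15.8% and 21.9% of all genes. Col1a1 stood at 1697 and 1678 CPM (log2 -0.02, -0.07 to 0.04), so that it did not differ beyond counting error. The 3 higher collagens were Col27a1, at 42.5 and 74.0 CPM, Col4a5, at 79.3 and 121 CPM, and Col4a6, with 20 and 86 UMIs.

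Pericyte clusters were filled unevenly, and the differences varied by cluster. The part of cluster make-up in the class values was not tested. Cluster 13 held 273 f/f and 109 d/d cells, cluster 10 held 36 and 507, and cluster 7, which also had high smooth muscle markers, held 69 and 578. Within cluster 13 Col4a1 stood at 3254 and 2281 CPM (log2 -0.51, -0.60 to -0.43) and Col4a2 at 1761 and 1505 CPM (log2 -0.23, -0.34 to -0.12), both under 1.5-fold. Col18a1 there stood at 1349 and 858 CPM (log2 -0.65, -0.79 to -0.52) and Col6a4 at 816 and 504 CPM (log2 -0.70, -0.88 to -0.52), whereas Col5a3, at 488 and 399 CPM, was under the limit. In the other clusters Col4a1 was lower in d/d, at 3390 and 2047 CPM in cluster 10 (log2 -0.73, -0.91 to -0.55) and at 1299 and 489 CPM in cluster 7 (log2 -1.41, -1.58 to -1.24). Col4a2 was lower in cluster 7, at 930 and 370 CPM (log2 -1.33, -1.53 to -1.13), and under the limit in cluster 10, at 1795 and 1424 CPM. In cluster 13, 1 of 19 collagens was higher and 9 lower, against 5.26% and 28.5% of all genes. Col4a5 and Col4a6 were not higher without cluster 7: their log2 differences then were -1.18 and -2.22. Col27a1 was higher in d/d within cluster 13 too, at 42.8 and 105 CPM (log2 1.30, 0.79 to 1.8).

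Blood endothelium, the inner lining of vessels, had the next highest Col4a1 and Col4a2 CPM after pericytes among the compared classes, although stroma, with more cells, gave more UMIs of both genes in both libraries. Col4a1 stood at 1507 and 1018 CPM (log2 -0.57, -0.62 to -0.51) and Col4a2 at 856 and 625 CPM (log2 -0.45, -0.52 to -0.38), both just under the 1.5-fold limit. The difference was uneven over the 2 endothelial clusters with at least 100 cells of each library. In cluster 8, led by Cd93 and Flt1, Col4a1 stood at 1649 and 1542 CPM and Col4a2 at 942 and 951 CPM, and the latter did not differ beyond counting error. In cluster 11, led by Selp and with Vwf among its leading genes, as in venous endothelium, Col4a1 stood at 1134 and 408 CPM (log2 -1.47, -1.60 to -1.35) and Col4a2 at 629 and 242 CPM (log2 -1.38, -1.55 to -1.21). In cluster 8, 1 of 16 collagens was higher and 12 lower, against 9.26% and 10% of all genes. In cluster 11, 0 of 11 were higher and 11 lower, against 15.8% and 11.6%. Both lower counts include fibrillar and type VI chains, for which free stromal RNA can weigh. The difference between the clusters was not tested. Col4a1 exceeded Col4a2 in blood endothelium by similar factors in both libraries, with UMI ratios of 1.76 in f/f and 1.63 in d/d. In pericytes the ratios were 1.81 (1.74 to 1.89) and 1.43 (1.38 to 1.48). In stroma they were 1.44 (1.40 to 1.48) and 1.30 (1.25 to 1.36), and in smooth muscle 1.47 and 1.43.

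Endothelial Col18a1 was lower in d/d, at 387 against 211 CPM (log2 -0.88, -0.99 to -0.76), and in both clusters 8 (453 and 262 CPM) and 11 (211 and 140 CPM). Col15a1 did not follow its stromal difference in blood endothelium, where it stood at 81.2 and 87.4 CPM (log2 0.11, -0.10 to 0.31). In cluster 8 it stood at 78.8 and 117 CPM and in cluster 11 at 87.8 and 53.1 CPM. In f/f the endothelial Col15a1 level was 10.8% of the stromal one, close to the 8.02% at which stromal marker genes were seen in endothelial cells, so that free stromal RNA can weigh there. In d/d it was 34.5%, against 2.16% for the stromal markers. Of 18 collagens judged in blood endothelium 3 were higher and 10 lower in d/d, against 11.3% and 11% of all genes.

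**Figure D4:**
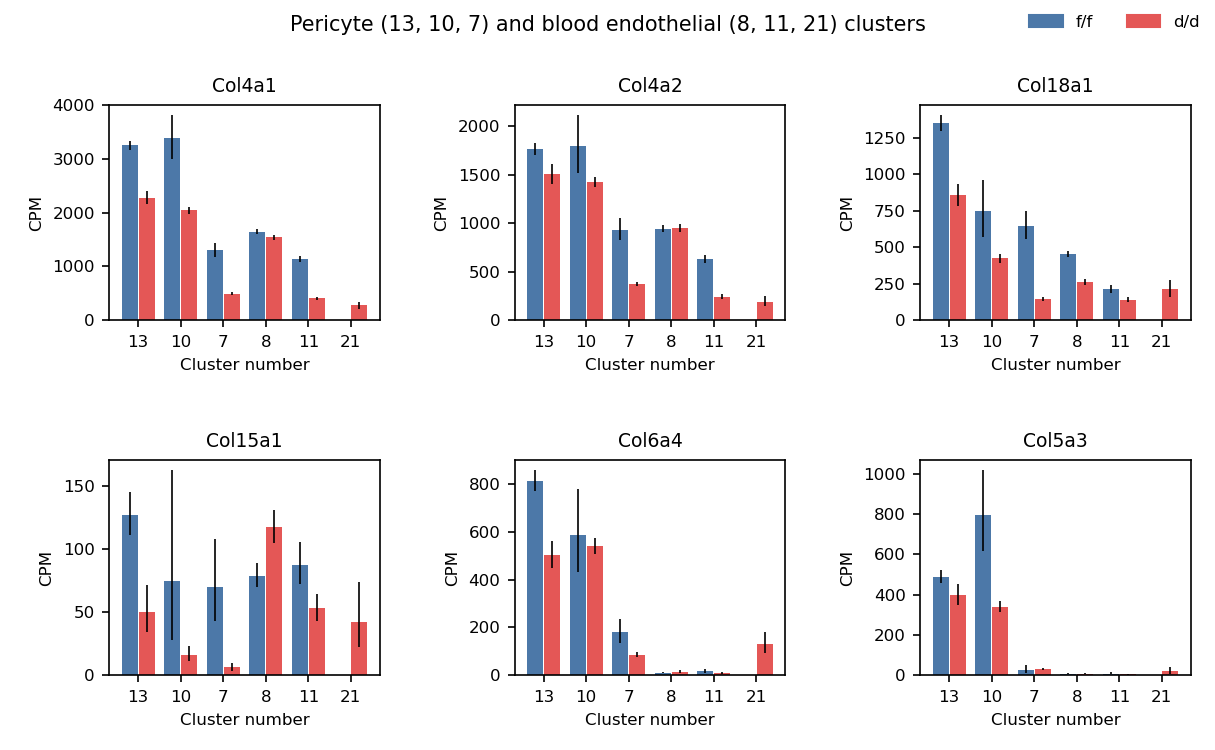
CPM of 6 collagens in pericyte clusters 13, 10 and 7 and blood endothelial clusters 8, 11 and 21, with bars for each library that had at least 30 cells in the cluster and lines for the 95% exact Poisson interval. Col4a1 and Col4a2 are nearly level between libraries in cluster 8 and lower in d/d in clusters 7 and 11, and Col18a1 is lower in d/d in the 5 clusters with both bars.

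Of the 10 lower endothelial collagens, 6 were fibrillar or type VI chains, most of them near the level of free RNA. Col1a1 in f/f blood endothelium was at 7.51% of its stromal CPM and in d/d at 2.51%, next to 8.02% and 2.16% for the 7 stromal markers, all of which were detected in both libraries. Col3a1, at 359 and 208 CPM, and Col6a1, at 72.3 and 30.5 CPM, were in f/f at 9.29% and 9.57% of their stromal levels. The 3 higher endothelial collagens were low as well. Col13a1, a transmembrane collagen, had 6 f/f and 71 d/d UMIs, of which 5 and 57 were in cluster 8. Col8a1, a short-chain collagen of vessel walls, had 29 and 50 UMIs and reached 77.8 CPM in the 95 d/d cells of cluster 21, led by Dll4 and Sema3g, which held 1 f/f cell. Col6a4, the last of the 3, had 56 and 89 UMIs.

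Smooth muscle collagens were led by type I and III chains, and Col12a1 and Col6a3 were lower in d/d. Col1a2 stood at 911 and 888 CPM (log2 -0.04, -0.11 to 0.04) and Col1a1 at 497 and 500 CPM, so that the ratio of Col1a1 to Col1a2 UMIs was 0.55 and 0.56, against 1.19 and 1.44 in stroma. Col1a1 was at 17.9% of its stromal CPM in f/f and 8.0% in d/d, next to 20.3% and 9.81% for the stromal markers, while Col1a2 was at 39.0% and 20.4%. Col12a1 stood at 208 and 59.4 CPM (log2 -1.81, -2.0 to -1.62). Nearly all of it lay in cluster 6, with 663 CPM in f/f against 115 CPM in d/d, against 14.6 and 15.6 CPM in cluster 3. Col6a3 showed the reverse preference and was lower in d/d in both clusters, with 688 and 244 CPM in cluster 3 and 173 and 91.1 CPM in cluster 6. In all, 1 of 18 collagens was higher and 6 lower in d/d smooth muscle, against 14.2% and 11.1% of all genes. In cluster 3, 0 of 14 were higher and 3 lower, against 16.6% and 9.59%, and in cluster 6, 1 of 15 was higher and 9 lower, against 22.2% and 11.6%. The 1 higher in the whole class, Col4a4, had 7 and 55 UMIs and an interval that included no difference (log2 0.81, -0.32 to 2.20).

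Type IV chains in smooth muscle, which forms a basement membrane around each cell, differed by less than 1.5-fold for 4 of the 5 judged. Col4a1 stood at 327 and 232 CPM, Col4a2 at 223 and 163 CPM, Col4a5 at 126 and 108 CPM and Col4a6 at 37.4 and 26.0 CPM. Col4a6 was thus higher in smooth muscle than in stroma in d/d but not in f/f, where stroma had 54.9 CPM. Col15a1, at 93.7 and 8.60 CPM, and Col18a1, at 28.7 and 8.14 CPM, were among the 6 lower, but in f/f Col15a1 was at 12.4% of its stromal level, below the 20.3% of the stromal markers.

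Epithelium and leukocytes are not known as sources of fibrillar collagen and served as a gauge of RNA carried over from other cells. In macrophages or monocytes, 245 f/f and 308 d/d cells, all 14 collagens judged were lower in d/d, against 21.7% of all genes, and 0 were higher, against 24.8%. The median collagen there stood at 41.5% of its stromal CPM in f/f and the stromal markers at 41.5%, next to 6.40% and 4.33% in d/d. Other f/f leukocytes had less stromal marker RNA, with 11.8% in natural killer or innate lymphoid cells, 10.4% in dendritic cells and 7.63% in T cells. In d/d these shares were 0.46%, 2.86% and 0.96%. The macrophage value is therefore not a level for the whole f/f library. In epithelium, 178 f/f and 147 d/d cells that fell into different sub-clusters, the median collagen was at 5.37% and 1.06% of its stromal level, next to 3.89% and 0.82% for the stromal markers. There 8 of 10 collagens were lower and 1, Col20a1, higher, against 22.7% and 17.5% of all genes. Epithelial Col4a5 stood apart, at 29.6 and 25.9 CPM, which is 11% and 18.7% of its stromal level, and did not differ beyond counting error (log2 -0.19, -0.65 to 0.28). In dendritic cells 3 of 3 collagens judged were lower and 0 higher, against 21.5% and 16.9% of all genes. These were the abundant Col1a1, Col1a2 and Col3a1. The share of stromal marker RNA in cells of other classes was higher in f/f than in d/d in epithelium, macrophages, dendritic cells, blood endothelium, pericytes and smooth muscle, and its part in the lower d/d collagen levels was not tested.

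Classes with fewer cells gave levels only. In 81 f/f and 61 d/d lymphatic endothelial cells Col4a1 stood at 589 and 330 CPM and Col18a1 at 436 and 290 CPM, and Col23a1 at 96.4 and 86.2 CPM, several times its stromal level of 24.8 and 3.15 CPM. The 38 f/f mesothelial cells, which cover the outer surface of the organ, had Col4a4 at 106 CPM and Col3a1 at 2866 CPM. Stromal markers stood there at 198% of their stromal level and Col3a1 at 74.2% of its own. The part of stromal RNA in this Col3a1 level was not tested. The remaining 11 collagens stayed under 50 UMIs in each library of each compared class. Over all kept cells of both libraries, Col8a2 had 92 UMIs, Col25a1 86, Col6a5 85, Col9a2 74, Col17a1 56, Col9a3 47, Col28a1 24, Col19a1 14, Col10a1 3 and Col2a1 1, and Col9a1 had 0. For Col9a1 a count of 0 allows up to 3 UMIs per library. Col2a1 and Col10a1 are among the collagens of cartilage.

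The genes that make, cut and crosslink collagen were taken from lists. In stroma, where 14% of all genes were higher in d/d and 20.6% lower, 2 of 22 hydroxylases, chaperones and folding factors were higher and 1 was lower, shares below those of all genes, with a median log2 difference of 0.01. Serpinh1, the collagen chaperone, stood at 1526 and 1088 CPM (log2 -0.49), while its client Col1a1 was higher in d/d. P4ha2, a catalytic subunit of prolyl hydroxylase, stood at 79.8 and 47.9 CPM (log2 -0.74, -0.87 to -0.61). In cluster 5, 0 of 20 were higher and 13 lower, against 13.8% and 13.3% of all genes, with a median of -0.81, including Serpinh1 at 4085 and 1493 CPM (log2 -1.45, -1.51 to -1.39) and P4ha2 at 280 and 81.9 CPM. In pericytes 0 of 20 were higher and 11 lower, against 15.8% and 21.9% of all genes.

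Of the 10 genes of propeptide removal and crosslinking judged in stroma, 4 were higher and 1 lower. The counts of this and the following lists stand against 14% of all genes higher and 20.6% lower in stroma, and 13.8% and 13.3% in cluster 5. Lox, which crosslinks fibrils, stood at 65.1 and 186 CPM (log2 1.52, 1.43 to 1.60), and the procollagen protease Adamts2 at 71.0 and 124 CPM. In cluster 5 Lox stood at 217 and 183 CPM (log2 -0.25, -0.46 to -0.03). Among 13 fibril-bound proteins 7 were higher and 2 lower in stroma, with Ogn at 72.9 and 248 CPM and Prelp at 8.78 and 55.2 CPM. In cluster 5, 2 were higher and 3 lower, with Postn, a matricellular protein, at 1203 and 295 CPM (log2 -2.03, -2.16 to -1.90). Of 9 receptor and uptake genes judged in stroma 4 were higher and 2 lower, among them Ctsk, a protease that degrades type I collagen, at 75.2 and 259 CPM, and it was higher in cluster 5 too, at 302 and 509 CPM. The other basement membrane genes gave 1 higher and 1 lower of 12 in stroma: Hspg2, encoding perlecan, at 149 and 265 CPM and Lamc3, a laminin chain, at 31.9 and 3.85 CPM. In cluster 5, 5 of 9 were lower.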

How the data were processed

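Values in the deposited matrices are unnormalized UMI counts, with 1 entry for each gene in each barcode. The software named is Cell Ranger 3.0.1 with mm10 per the submitters' processing notes, whereas the matrix headers name cellranger 6.0.1. Cells with at least 1000 UMIs, 500 genes and at most 20% mitochondrial UMIs were kept. Scrublet doublets were marked at 0.8% per 1000 barcodes (533 f/f, 355 d/d), since its automatic threshold marked 0 f/f barcodes. Counts scaled to 10000 per cell were reduced to 2000 variable genes without collagens and 30 components, then clustered by Leiden at resolution 1 on 15 neighbours (scanpy 1.11.5, leidenalg 0.10.2). Clusters were named from marker lists, leaving hemoglobin genes out of the leading genes; a sub-cluster of epithelium (98 f/f cells, 17 d/d cells) with leading muscle and stromal genes stayed unnamed. Classes needed 100 cells in both libraries. TMM scaling (edgeR 4.0.16) and other settings were tried as alternatives. Intervals were tried only on simulated Poisson counts, the model that they assume. That trial cannot show how they fare with variation between cells, animals or libraries.

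All members were accounted for, and values are given for those with 50 UMIs in a compared class. Differences under 20 CPM, or under 10% of the gene's highest class, may be free RNA. Up to 4 genes of each partner list past 1.5-fold were eligible for naming, and Serpinh1 in stroma and Lox in cluster 5 were named beyond that rule. Members, lists and markers were chosen with earlier results of these data known. Gene positions are from GENCODE M21.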

Additional observations from a re-analysis of the deposited data

Results flagged for a closer look

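In 6 collagens the libraries differed in opposite directions in the parts of the stroma, at least 1.5-fold higher in d/d outside cluster 5 and at least 1.5-fold lower in d/d within it. The log2 values were 1.38 and -0.71 for Col1a1, 0.97 and -0.70 for Col1a2, 0.85 and -0.78 for Col3a1, 1.04 and -0.71 for Col5a1, 0.96 and -0.85 for Col5a3, and 0.93 and -1.88 for Col12a1. With 1 library per genotype the difference between the parts was not tested. Outside cluster 5 the d/d cells were mostly of cluster 4 and the f/f cells mostly of clusters 0, 1 and 2.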

How the results depend on the processing

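No paired analysis was possible because each genotype had 1 library and no test was made. Summed stromal collagens had a log2 difference of 0.69. It became 0.73 with TMM scaling, 0.70 with totals without collagens or a minimum of 2000 UMIs, and 0.60 as a mean over cells. It was 0.58 with each library clustered separately and 0.73 without cluster 5. Separate clustering named 3773 f/f and 1702 d/d cells as stroma, against 4710 and 1704 otherwise, so its value covers fewer f/f cells. At a 2-fold limit, higher collagens numbered 4 in stroma, 0 in smooth muscle, 0 in pericytes and 1 in blood endothelium, and lower ones 5 in blood endothelium and 7 in cluster 5. The single higher collagen in smooth muscle became 2 with TMM scaling, totals without mitochondrial and ribosomal protein genes, a minimum of 2000 UMIs, at most 10% mitochondrial UMIs, collagens among the variable genes or resolution 0.5, and 0 as a mean over cells or with doublets kept, where 12 were lower. The 3 higher in pericytes became 1 with doublets kept, separate clustering or clusters of 100 cells in both libraries. In blood endothelium, the mean over cells gave 6 lower and a minimum of 2000 UMIs gave 1 higher. In cluster 5, a minimum of 20 UMIs gave 2 higher and one of 2000 UMIs per cell gave 1.

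Signs reversed for endothelial Col16a1 as a mean over cells (0.21) and, in alternatives chosen after seeing the data, for pericyte Col4a5 and Col4a6 without cluster 7 (-1.18 and -2.22, with 7 collagens lower) and Col4a5 in cluster 13 (-1.71). The Col4a6 value rests on no more than 20 f/f UMIs. The cause of these reversals was not tested. Stroma, smooth muscle and cluster 5 had 0 reversed collagens. Clustering each library separately cannot give a cluster shared by both, so cluster 5 has no value there. Depth limits members under 20 CPM.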

Other observations

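Over all kept cells of each library, without regard to class, the summed share of Col1a1, Col1a2 and Col3a1 was 0.693% of f/f UMIs and 0.691% of d/d UMIs, while that of all other collagens was 0.488% and 0.334%. Stroma held 69.5% of f/f UMIs and 32.3% of d/d UMIs, so that the share within stroma, 0.897% and 1.72%, and the whole-library share differ.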
